A study of Xenopus laevis with 8 samples.

Results

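The genes described here encode the cadherins, the claudins and the other proteins that hold animal cells together at their junctions. A probe set belonged to the set when its single gene symbol named a cadherin (cdh), protocadherin (pcdh), claudin (cldn), occludin, zonula occludens protein (tjp), junctional adhesion molecule (f11r or jam), alpha or delta catenin, desmosomal protein (dsp, dsg, dsc, pkp or jup), connexin (gja to gjd), ncam, epcam or nectin, with pcdh8 and pcdh8l left out. The names and not the measured values decided which genes belonged, although the set was chosen with earlier results of these data known. Of 11303 named genes on the array, 65 belonged to the set, and each was read by the brightest of its probe sets. They were 11 cadherins, 4 catenin genes, 4 copies of ncam1 and epcam, 2 nectins, 10 desmosome genes, 17 claudins, 6 other tight junction genes, 6 connexins and 5 protocadherins. The members ctnnal1.S (alpha-catulin) and cldnd1.L (claudin domain containing 1), came in by the letters of their names and stand at the edge of their families. Only the exact names pcdh8 and pcdh8l were left out, so pcdh8.2.L stayed in as a protocadherin. Xenopus laevis is an allotetraploid, and symbols ending in .L or .S tell apart its long-chromosome and short-chromosome copies.

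Cadherins are calcium-dependent adhesion molecules that bind their like on the next cell, and catenins tie them to actin. Desmosomes are spot junctions tied to keratin, claudins and occludin seal the tight junction, and connexins form the channels of gap junctions. In the vertebrate ectoderm the epidermis carries E-cadherin (cdh1), the neural plate exchanges it for N-cadherin (cdh2) and ncam1, and neural crest cells change their cadherins again before they migrate.

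RNA came from Xenopus laevis animal caps, the ectoderm of the blastula, which becomes epidermis when grown alone. The 8 arrays make 4 groups of 2. One group was not injected, another received chordin RNA, the next chordin plus wnt3a RNA, and the last those RNAs plus a morpholino that targets lrig3. Injection was at the 2-cell stage, explants were taken at stage 9 and RNA was collected at stage 15, so all 3 injected groups share chordin from cleavage on. Chordin binds and blocks BMPs outside the cell, Wnt3a is a Wnt ligand, and Lrig3 spans the membrane and carries leucine-rich repeats. No control morpholino was among the groups analysed here, and nothing in the labels says whether the 2 arrays of a group came from separate batches of embryos, so p-values measure the spread between these arrays, which may be technical.

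Signals are linear array intensities on the scale the authors gave each array. Median signals were 95.6 to 114 and 68.6% to 76.0% of probe sets lay above background, the highest of 23 negative control probe sets of the array (19.5 to 30.8). Arrays of the same group correlated at 0.929 to 0.967 across probe sets and arrays of different groups at 0.739 to 0.925. The targeted gene, lrig3.S, had signals of 95.6 and 172 in uninjected caps, 3191 and 2158 with chordin, 741 and 756 with wnt3a added and 4787 and 3002 with the morpholino, and since a morpholino may block translation without removing the message, these do not check the knockdown. Wnt3a.S read 10956 and 18771 with wnt3a and 27548 and 25479.8 with the morpholino, against values between 0.498 and 28.2 on the other 4 arrays. Chordin itself (chrd.1.S) read 1.66 and 1.34 in uninjected caps and 468 and 771 with chordin. It read 100 and 291 with wnt3a added and 156 and 159 with the morpholino. Its signal thus differed between groups that all received chordin RNA, and the part of this in the results was not tested. Of 15 epidermal markers 13 and 12 were above background in uninjected caps, and the keratin krt70.S was bright on all 8 arrays. The neural plate marker sox2.L read 245 and 213 in uninjected caps and 9627 and 7027 with chordin, and the neural crest marker foxd3.L read 6763 and 7027 with wnt3a against 1.98 to 20.6 on the uninjected and chordin arrays. The mesoderm marker tbxt.L (brachyury) read 1835 on morpholino replicate 1 and 10.5 on replicate 2. In bulk samples of this kind, fewer cells of a type and less RNA per cell cannot be told apart.

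Between 46 and 54 of the 65 members were above background on an array, and 7 members were at or below background on all 8. Testing used log2(signal + 5.22) and limma across 22000 probe sets that passed a filter on low signals, with Benjamini-Hochberg adjustment and a threshold of 0.05. Group means alone were fitted. The replicate numbers of the sample titles entered only in an alternative, as a block. The filter kept 51 members. It left out 14, which were cdh6.L, cdh11.S, cdh13.L, cdh16.L, ctnna2.L, cldn12.L, cldn14.L, cldn18.L, cldn19.L, cldn19.S, tjp3.S, gja1.L, gja4.S and pcdh20.S. Cldn3.L, gjb7.S, tjp1.S and pcdhga3.L passed the filter through the arrays of 1 group only. The filter was not reset when an array was left out, so these genes stayed in those fits. An F test over the 4 groups called 34 members, where it called 41.2% of all probe sets. Without either uninjected replicate, which left 1 array in that group, it called fewer members. The share of all probe sets is not given for those F tests, but the comparisons with uninjected caps called fewer of all probe sets there. Fold changes refer to signal plus pseudocount and understate the change of dim genes, and the p-values pool the spread of all 8 arrays, since the smallest exact permutation p for 2 arrays against 2 is 0.333.

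**Figure D1:**
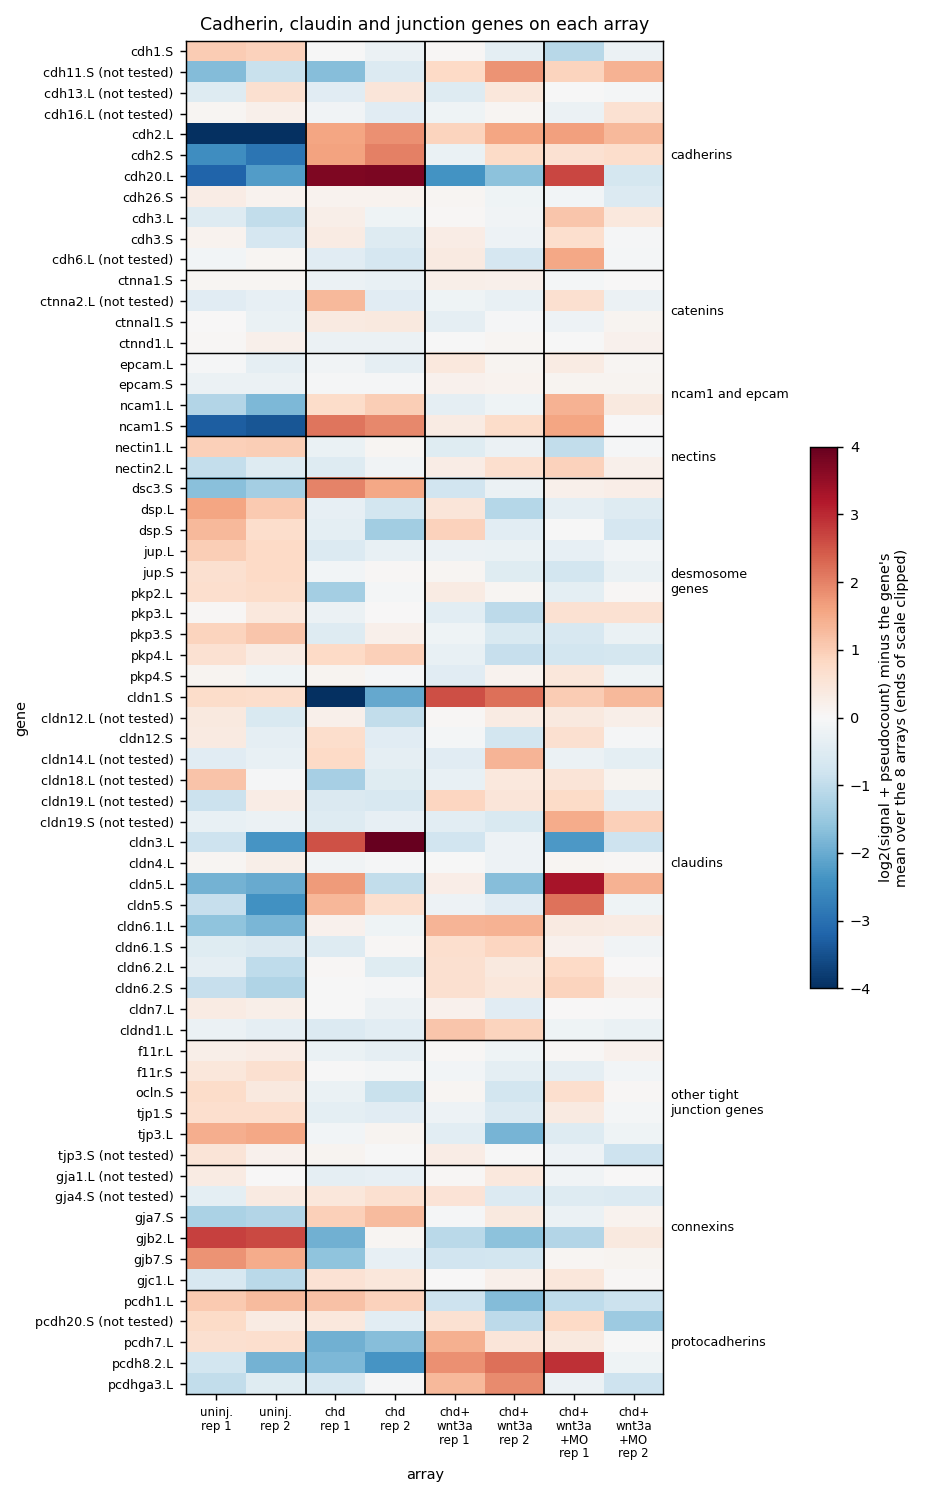
Each row is 1 of the 65 genes and each column 1 of the 8 arrays (uninj., uninjected; chd, chordin; MO, lrig3 morpholino; rep, replicate). The colour is log2(signal + 5.22) minus the mean of that gene over the 8 arrays, from blue (lower) to red (higher), with rows grouped by role. Cdh2.L and ncam1.S are blue in uninjected caps and red with chordin, cdh20.L, cldn3.L and dsc3.S are reddest with chordin (cdh20.L also on morpholino replicate 1), and most desmosome genes are reddest in uninjected caps.

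With chordin, the neural cadherin and ncam1 came up, and E-cadherin and most desmosome genes went down. N-cadherin (cdh2.L) was 69.6-fold higher, and E-cadherin (cdh1.S) was 2.15-fold lower. Of the desmosome genes 6 fell, and dsc3.S rose. Claudins moved both ways: cldn3.L rose by at least 19.0-fold and cldn1.S fell, by a size that 1 array sets. Of the 51 members tested 12 rose and 15 fell, beside 17.6% and 11.7% of all probe sets that were called higher and lower (29.3% in either direction). Without the filter, so that all 65 members entered, 11 rose and 13 fell, or 16.9% and 20% of them, beside 11% and 7.38% of 32539 probe sets. The median log2 change was then -0.17 over the members and 0.02 over all probe sets.

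N-cadherin drives the adhesion of the neural plate. Cdh2.L had signals of 56.9 and 28.6 in uninjected caps and 2907 and 3497 with chordin, and both chordin arrays lay far above both uninjected ones (log2 change 6.12, SE 0.34, limma adjusted p = 0.000323). The other copy, cdh2.S, went from 71.3 and 51.8 to 1295 and 1734 (log2 change 4.51, SE 0.36, limma adjusted p = 0.000707). Cdh20.L, a type II cadherin, did not exceed background on either uninjected array (0.647 and 6.06) and read 702 and 729.6 in chordin caps, at least 23.5-fold higher (adjusted p = 0.00599). These 3 changes kept their calls with each of the 8 arrays left out in turn. Cdh2.L has 5 probe sets that disagree: the second brightest rose by 6.23 (adjusted p = 0.000202), while 2 dimmer ones changed by 0.69 and 0.42 and did not pass.

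Cdh1.S, the E-cadherin of epidermis, stood at 4762 and 4480.4 in uninjected caps and at 2321 and 1977 with chordin, a fall to a level that was still bright (log2 change -1.11, SE 0.29, limma adjusted p = 0.0294). Cdh3.L, the C-cadherin that the Xenopus egg supplies to the blastula, had signals of 4366 and 3112 and then 7262 and 5551. Its groups did not overlap, but the change did not pass (log2 change 0.78, SE 0.27, limma adjusted p = 0.0724). In limma with the replicate number as a block it did, with an adjusted p of 0.00475. It also passed with quantile normalization (0.0380), spike-in scaling (0.00410) and the 2 groups alone (0.0490). Cdh3.S and cdh26.S had changes of 0.18 (SE 0.41, adjusted p = 0.774) and -0.10 (SE 0.17, adjusted p = 0.705). Of the 4 cadherins left out of the test, cdh13.L was at background on all arrays, cdh16.L exceeded it only on morpholino replicate 2, and cdh6.L and cdh11.S read at most 31.1 in these 2 groups.

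Ncam1, an adhesion molecule of the immunoglobulin family, is a classical marker of neural induction. Ncam1.S did not exceed background in uninjected caps (17.4 and 15.8) and read 981 and 838 with chordin, at least 29.7-fold higher (log2 change 5.39, SE 0.47, limma adjusted p = 0.000943). Ncam1.L was above background throughout and rose from 93.2 and 58.9 to 365 and 431 (log2 change 2.34, SE 0.37, limma adjusted p = 0.00592). The rise of both copies held with each array left out. Epcam, an adhesion molecule of epithelia, was among the brightest members, with epcam.S at 15118 and 15171 and then 17089 and 17131 (log2 change 0.18, SE 0.07, limma adjusted p = 0.115; adjusted p = 0.0449 with the replicate block). Summed signals of 6 neural plate markers moved with this group of genes, from 3475 and 3686 to 43531 and 36533, and their part in the result was not tested.

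Among the 10 desmosome genes, 6 fell, 1 rose and 3 did not pass. Plakoglobin (jup), which serves both desmosomes and adherens junctions, gave the call with the lowest adjusted p among those that fell. Jup.L read 11229 and 9899.5 in uninjected caps and 3889 and 4578 with chordin (log2 change -1.32, SE 0.14, limma adjusted p = 0.00148). Desmoplakin, the link to keratin, fell in both copies, dsp.L from 889 and 609 to 235 and 175 (log2 change -1.83, SE 0.51, limma adjusted p = 0.0360) and dsp.S from 1563 and 1042 to 488 and 239 (adjusted p = 0.0391). Of the plakophilins, armadillo proteins of the desmosomal plaque, pkp3.S changed by -1.15 (SE 0.27, adjusted p = 0.0206) and pkp2.L by -1.41 (SE 0.39, adjusted p = 0.0373), and the second probe set of each also fell (adjusted p = 0.0138 and 0.00928). Jup.S changed by -0.74 (SE 0.23, adjusted p = 0.0474), and its adjusted p was 0.0582 with the replicate block. Chordin arrays lay below uninjected arrays for all 6 genes, which adds no support, since their calls come from the same arrays.

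The exception was dsc3.S, a desmocollin, which is itself a cadherin of the desmosome. Its uninjected signals of 15.0 and 19.8 were at background and it read 250.0 and 183 with chordin, at least 7.15-fold higher (log2 change 3.28, SE 0.33, limma adjusted p = 0.00142). Pkp3.L, pkp4.L and pkp4.S had changes of -0.35, 0.41 and 0.07 that did not pass. Leaving out any 1 of the 4 arrays left fewer desmosome genes called lower, while dsc3.S and jup.L kept their calls. Fewer of all probe sets were called in those fits too. Summed signals of 15 epidermal markers were 202340 and 169580 in uninjected caps and 96548 and 100280 with chordin, those of 8 multiciliated cell markers 15024 and 14899 and then 184 and 965, and their part in the fall was not tested. Of the tested markers 3 of 13 epidermal ones and 6 of 8 multiciliated ones were called lower, beside 11.7% of all probe sets.

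Of 17 claudins 12 were tested. Cldn3.L was at background on both uninjected arrays with 21.4 and 4.00 and read 272 and 1217 with chordin, an increase of at least 19.0-fold on arrays that differed from each other (log2 change 5.22, SE 0.88, limma adjusted p = 0.00731). Cldn1.S, a barrier claudin of skin in mammals, fell from 986 and 965 to 1.27 and 138, with only chordin replicate 1 at background (log2 change -5.01, SE 1.23, limma adjusted p = 0.0253). The change was -2.78 without chordin replicate 1 and -7.24 without replicate 2. Its second probe set fell by 5.56 on the log2 scale (adjusted p = 0.036).

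The cldn6 genes, claudins of early embryonic epithelia, were bright. Cldn6.1.L went from 1065 and 918 to 3709.7 and 2926 (log2 change 1.73, SE 0.15, limma adjusted p = 0.000879), and cldn6.2.S from 3401 and 2783 to 6339 and 6288 (log2 change 1.04, SE 0.23, limma adjusted p = 0.0162). Their partner copies cldn6.1.S and cldn6.2.L changed by 0.29 (SE 0.20, adjusted p = 0.320) and 0.46 (SE 0.33, adjusted p = 0.332) (for cldn6.2.L, adjusted p = 0.0290 with the replicate block). Cldn5.S, known from vessel walls in mammals, was at background in uninjected caps and rose at least 3.58-fold (adjusted p = 0.0493), but 11 of 17 alternatives ended the call. They include pseudocounts of 16 and 64 (adjusted p = 0.0600 and 0.104), no filter (0.0549), quantile normalization (0.0588) and plain moderation (0.0577). Cldn5.L read 73.8 and 6.99 with chordin and did not pass (log2 change 2.32, SE 1.11, limma adjusted p = 0.159; adjusted p = 0.0353 with the replicate block). Cldn4.L and cldn7.L, the first with signals of 12278 or more and the second of 9316 or more on every array, had changes of -0.24 and -0.41 that did not pass, as did cldn12.S and cldnd1.L. Of the 5 untested claudins, cldn14.L, cldn19.L and cldn19.S were at background on all arrays, and the highest signals of cldn12.L and cldn18.L were 36.6 and 30.8.

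At the tight junction 3 of 5 tested genes fell. Tjp3.L, a scaffold of the zonula occludens family, went from 1129 and 1210.0 to 382 and 438 (log2 change -1.50, SE 0.44, limma adjusted p = 0.0416), and its second probe set also fell. F11r, the junctional adhesion molecule A, fell in both copies by small steps, f11r.L by 0.57 (SE 0.12, adjusted p = 0.0152) and f11r.S by 0.60 (SE 0.16, adjusted p = 0.0343) on the log2 scale, and both changes turned to 0.12 and 0.10, not called, with spike-in scaling, which sets the arrays by their poly-A controls. Occludin (ocln.S) read 5663 and 4462 and then 2858 and 1853, without overlap, and tjp1.S read 52.9 and 52.5 and then 22.5 and 21.7. Neither passed in limma (adjusted p = 0.0556 and 0.0648), and both did with the replicate block (adjusted p = 0.00197 and 0.0479). Ocln.S also passed with the 2 groups alone (0.025) and the stricter filter (0.0499), and tjp1.S with a pseudocount of 64 (0.0421) and plain moderation (0.0173). Tjp1.S had passed the filter only through the uninjected arrays, which favours a fall from them. None of these tight junction genes was called in limma when any 1 of the 4 arrays compared was left out.

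All 4 tested connexins were called, 2 in each direction. Gjb2.L, the connexin 26 of mammalian skin and ear, fell from 690.5 and 646 to 22.6 and 106 (log2 change -3.60, SE 0.74, limma adjusted p = 0.0139). Gjb7.S read 107 and 86.4 and then was at background, at least 3.78-fold lower (limma adjusted p = 0.0107). It had passed the filter only through the uninjected arrays, which favours a fall from them. Gja7.S went the other way, from 349 and 378 to 1659 and 2043 (log2 change 2.33, SE 0.23, limma adjusted p = 0.00124), and gjc1.L rose from 2379 and 1759.7 to 5533 and 5113 (log2 change 1.38, SE 0.20, limma adjusted p = 0.00426). The dimmer second probe set of gjc1.L changed by 0.35 and did not pass. Without either uninjected array neither gjb gene passed, while both rises held with each array left out.

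Of the catenins, alpha-catenin (ctnna1.S) changed by -0.34 (SE 0.10, adjusted p = 0.0420), and p120-catenin (ctnnd1.L), which stabilises cadherins at the membrane, by -0.37 (SE 0.13, adjusted p = 0.0694) (adjusted p = 0.0232 with the replicate block). The second probe set of ctnna1.S fell too (-0.54, adjusted p = 0.0139), while under spike-in scaling the change of its brightest was 0.35 and was not called. Pcdh7.L, the NF-protocadherin of Xenopus ectoderm, fell from 159 and 161 to 22.5 and 26.8, and its arrays were tight within each group (log2 change -2.47, SE 0.36, limma adjusted p = 0.00427). No other protocadherin and neither nectin passed. Nectin1.L, whose protein binds afadin at adherens junctions, changed by -1.07 (SE 0.37, limma adjusted p = 0.0677). It passed with the replicate block (adjusted p = 0.0304), the 2 groups alone (0.0404) and a pseudocount of 64 (0.0345).

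Of the 27 calls 12 held with each array left out in turn: cdh2.L, cdh2.S, cdh20.L, ncam1.L, ncam1.S, dsc3.S, jup.L, cldn3.L, cldn6.1.L, gja7.S, gjc1.L and pcdh7.L. Leaving out any 1 of the 4 arrays compared left 1 array in a group. Fewer of all probe sets were then called in either direction, and of the members mainly the falls were lost. Of all probe sets too a larger part of the falls than of the rises was lost, except without chordin replicate 2. A greater loss of falls is therefore not particular to these members. The arrays that ended a call, with the highest adjusted p, were as follows for the fallen genes: cdh1.S (4 of 8 arrays, up to 0.121 without chordin replicate 2), dsp.L (4 of 8 arrays, up to 0.161 without uninjected replicate 1), dsp.S (4 of 8 arrays, up to 0.175 without uninjected replicate 1), jup.S (4 of 8 arrays, up to 0.189 without chordin replicate 1), pkp2.L (5 of 8 arrays, up to 0.137 without uninjected replicate 2), pkp3.S (3 of 8 arrays, up to 0.104 without uninjected replicate 2), cldn1.S (2 of 8 arrays, up to 0.104 without uninjected replicate 1), f11r.L (4 of 8 arrays, up to 0.0785 without chordin replicate 2), f11r.S (4 of 8 arrays, up to 0.157 without uninjected replicate 2), tjp3.L (6 of 8 arrays, up to 0.164 without chordin replicate 1), gjb2.L (3 of 8 arrays, up to 0.0731 without uninjected replicate 1), gjb7.S (2 of 8 arrays, up to 0.0731 without uninjected replicate 1) and ctnna1.S (8 of 8 arrays, up to 0.174 without chordin replicate 2). For the risen genes they were cldn5.S (6 of 8 arrays, up to 0.213 without uninjected replicate 2) and cldn6.2.S (3 of 8 arrays, up to 0.0891 without uninjected replicate 2). Scaling to the poly-A spike-in controls moved the median of all probe sets from 0.09 to 0.76, because these controls read 9.97 (mean log2 signal) on uninjected replicate 1 and 8.74 to 9.08 on the other 3 arrays. It left 15 members higher and 3 lower (gjb2.L, gjb7.S and pcdh7.L), beside 26.2% and 3.3% of all probe sets. Plain moderation ended the calls of ctnna1.S, dsp.S, f11r.L, f11r.S, jup.S, pkp2.L and tjp3.L as well as cldn5.S (adjusted p between 0.0510 and 0.149). Quantile normalization and the lack of a filter ended those of ctnna1.S and jup.S, and a fit of the 2 groups alone those of ctnna1.S and pkp2.L. A single array moved other fitted changes by over 1.5-fold too: without chordin replicates 1 and 2 these were -2.60 and -4.59 for gjb2.L, -1.97 and -3.25 for gjb7.S, -0.76 and -2.06 for pkp2.L, and 6.29 and 4.15 for cldn3.L. Without uninjected replicates 1 and 2 the change was 5.98 and 4.45 for cldn3.L and 3.41 and 1.93 for cldn5.S. Cldn3.L passed the filter only through the chordin arrays. It was still tested with either of them left out, so that its call held there does not check the filter.

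**Figure D2:**
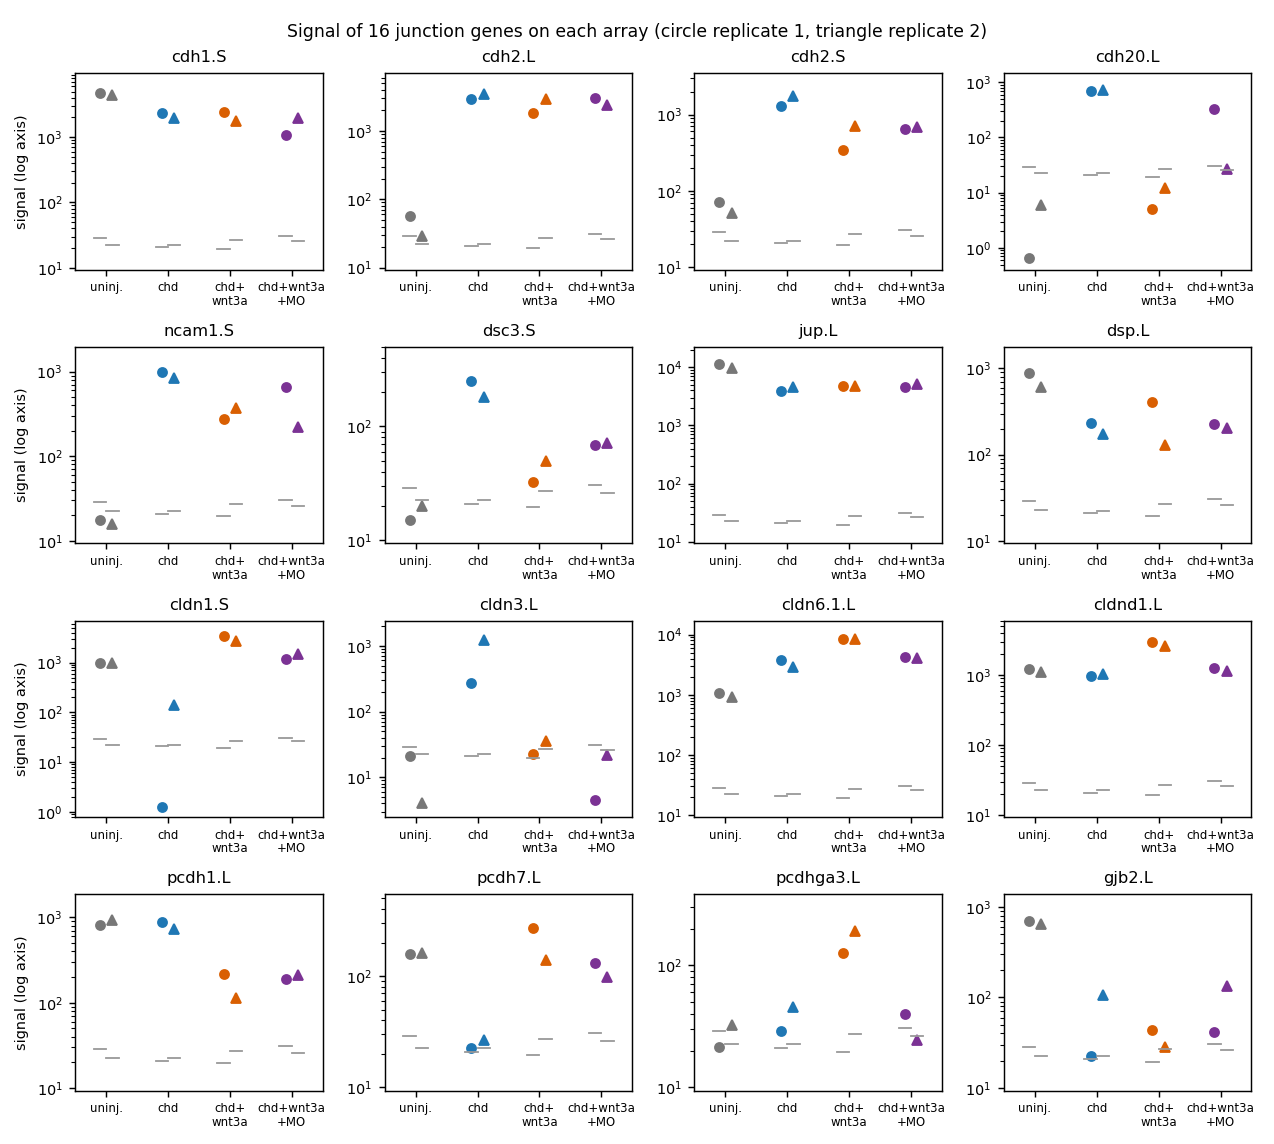
Signals (log axis, deposited intensity units) of 16 of the genes in the 4 groups, with circles for replicate 1, triangles for replicate 2 and grey bars for the background of each array. Uninj. stands for uninjected, chd for chordin and MO for the lrig3 morpholino. Cdh20.L, cldn3.L and dsc3.S are highest on both chordin arrays, pcdh7.L and cldn1.S are lowest there, and cldnd1.L and pcdhga3.L are highest on both arrays with chordin and wnt3a.

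Adding wnt3a to chordin changed claudins, protocadherins and cdh20.L, while E- and N-cadherin did not pass in the main fit. The N-cadherin copy cdh2.S came near the threshold and passed as lower in some alternatives. Cldn1.S rose, by a size that 1 chordin array sets, pcdh7.L rose 6.76-fold, and cdh20.L fell at least 25.5-fold. Of 51 members tested 7 rose and 5 fell, beside 3.08% and 2.74% of all probe sets called higher and lower (5.82% in either direction). Without the filter 5 of 65 rose and 5 fell (7.69% each, beside 2.09% and 1.82% of all probe sets), with a median of -0.02 over the members and 0.00 over all probe sets. This comparison shares the chordin arrays with the one before, so that a chance deviation of those arrays enters both with opposite sign, and the values are set side by side without a test of their relation.

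Cdh2.L read 1811 and 2889 with wnt3a (log2 change -0.48, SE 0.34, limma adjusted p = 0.593) and cdh1.S 2403 and 1769 (log2 change -0.05, SE 0.29, limma adjusted p = 0.965). Cdh2.S read 349 and 718, below both chordin arrays, and its change just missed the threshold (log2 change -1.57, SE 0.36, limma adjusted p = 0.0531). It passed in limma with the replicate block (adjusted p = 0.0399), pseudocounts of 16 and 64 (0.0469 and 0.0367) and quantile normalization (0.0497). Cdh20.L returned to background with 4.97 and 12.1, at least 25.5-fold lower than with chordin (log2 change -5.76, SE 1.01, limma adjusted p = 0.0239).

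Cdh11.S, a type II cadherin of cranial neural crest in Xenopus, was too dim for the filter. It was at background on both uninjected and both chordin arrays, with at most 10.9, and above it on the 4 arrays with wnt3a, at 36.3 and 77.4 and, with the morpholino, 38.7 and 57.2. Tested without the filter it changed by 2.44 against chordin (adjusted p = 0.0664) and by 2.63 against uninjected caps (adjusted p = 0.0165). Its arrays with wnt3a did not overlap those without.

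Of the claudins 4 rose and 1 fell. Cldn1.S came back from 1.27 and 138 to 3495 and 2706 (log2 change 6.66, SE 1.23, limma adjusted p = 0.0276), and its adjusted p was 0.0525 with the replicate block and 0.0523 without the filter. The change was 4.43 without chordin replicate 1 and 8.89 without replicate 2. Its second probe set had a change of 4.21 that did not pass (adjusted p = 0.209). Cldn6.1.L rose again, to 8463 and 8541, above both chordin arrays (log2 change 1.37, SE 0.15, limma adjusted p = 0.00398), and cldn6.1.S rose to 9434 and 10903 (log2 change 1.01, SE 0.20, limma adjusted p = 0.0336). Cldnd1.L, a claudin-domain gene that had not passed with chordin, went from 972 and 1059.9 to 3042 and 2663 (log2 change 1.48, SE 0.15, limma adjusted p = 0.00267). Cldn3.L, high only with chordin, fell to 22.9 and 36.2 (log2 change -4.09, SE 0.88, limma adjusted p = 0.0445). It had passed the filter only through the chordin arrays, which favours a fall from them.

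Of 4 tested protocadherins 2 rose and 1 fell. Pcdh7.L came back from 22.5 and 26.8 to 273 and 140.5, which spans its uninjected values of 159 and 161 (log2 change 2.76, SE 0.36, limma adjusted p = 0.00708). Pcdhga3.L, a member of the gamma cluster, rose from 29.1 and 45.9 to 126 and 193 (log2 change 1.94, SE 0.42, limma adjusted p = 0.0438). It had passed the filter only through the wnt3a arrays, which favours a rise there. Pcdh1.L, known in Xenopus as axial protocadherin, read 808 and 935 in uninjected caps and 883 and 732 with chordin, and fell with wnt3a to 216 and 113 (log2 change -2.32, SE 0.31, limma adjusted p = 0.00798), and its second brightest probe set fell too (-2.69, adjusted p = 0.0216). Pcdh8.2.L was at background with chordin and read 148 and 197 with wnt3a, at least 6.55-fold higher, but did not pass (log2 change 4.09, SE 0.97, limma adjusted p = 0.0620). It passed with the replicate block (adjusted p = 0.0339), the 2 groups alone (0.0134) and spike-in scaling (0.00277).

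In the desmosome group dsc3.S fell back to 32.1 and 49.4 (log2 change -2.28, SE 0.33, limma adjusted p = 0.0108), and pkp4.L, a p120-like plakophilin, fell to 495 and 317 from 1067 and 1168 (log2 change -1.48, SE 0.24, limma adjusted p = 0.0163). None of the 6 desmosome genes that had fallen with chordin passed in this comparison. The largest of their changes was dsp.S, with 1207 and 477 against 488 and 239 (log2 change 1.14, SE 0.53, limma adjusted p = 0.345; adjusted p = 0.0229 with the replicate block). Ctnna1.S rose from 4466 and 4215 to 6194 and 5973 (log2 change 0.49, SE 0.10, limma adjusted p = 0.0376), and its second probe set changed by 0.33 and did not pass. No connexin, nectin, ncam1 or epcam gene and no other tight junction gene passed, although in limma with the block gja7.S (adjusted p = 0.0106), epcam.L (0.00450) and cldn6.2.L (0.0180) did. Ncam1.S passed as lower with the 2 groups alone (0.0376), and epcam.L as higher with quantile normalization (0.0488).

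Only cldn6.1.L and cldnd1.L held with each array left out. Leaving out any uninjected, chordin or wnt3a array left 1 array in a group and gave fewer calls among the members. Fewer of all probe sets were called in those fits too. Cldn3.L changed by -5.16 and -3.02 without chordin replicates 1 and 2. A fit of the 2 groups alone ended the calls of cldn1.S, cldn3.L, cldn6.1.S, ctnna1.S, pcdhga3.L and pkp4.L. Plain moderation ended those of cldn3.L, cldn6.1.S and ctnna1.S, spike-in scaling those of cldn1.S, cldn6.1.S, ctnna1.S and pkp4.L, the stricter filter that of cldn3.L and the lack of a filter that of ctnna1.S. Calls were ended for cdh20.L (6 of 8 arrays, up to 0.135 without chordin replicate 1), cldn1.S (4 of 8 arrays, up to 0.116 without wnt3a replicate 2), cldn3.L (6 of 8 arrays, up to 0.199 without chordin replicate 2), cldn6.1.S (5 of 8 arrays, up to 0.172 without wnt3a replicate 2), ctnna1.S (8 of 8 arrays, up to 0.201 without chordin replicate 2), dsc3.S (1 of 8 arrays, up to 0.0932 without chordin replicate 1), pkp4.L (3 of 8 arrays, up to 0.0987 without chordin replicate 2), pcdh1.L (1 of 8 arrays, up to 0.0629 without chordin replicate 1), pcdh7.L (1 of 8 arrays, up to 0.0523 without chordin replicate 1) and pcdhga3.L (6 of 8 arrays, up to 0.236 without wnt3a replicate 2). Wnt3a replicate 2 had lower signals of epidermal markers than replicate 1, with itln1.L, an epidermal lectin, at 601 against 16683 and summed epidermal markers at 51163 against 125740, and the part of this in the results was not tested. Summed neural crest markers moved with wnt3a, from 414 and 484 to 36175 and 40230, and cement gland markers from 66874 and 78170 to 4288 and 2601. Summed neural plate markers went from 43531 and 36533 to 14185 and 18171, with 3 of 6 called lower, and the part of these markers in the results was not tested.

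Set directly against uninjected caps, the caps with chordin and wnt3a differed in N-cadherin, ncam1, E-cadherin, the cldn6 claudins and most desmosome genes. Of 51 members tested 15 rose and 13 fell, beside 19.0% and 14.7% of all probe sets (33.7% in either direction). Without the filter 16 of 65 rose and 13 fell (24.6% and 20%, beside 12.1% and 9.48%), with medians of 0.02 over the members and 0.06 over all probe sets. Cdh2.L was 50.0-fold higher (log2 change 5.64, SE 0.34, limma adjusted p = 0.000235) and cdh1.S 2.24-fold lower (log2 change -1.16, SE 0.29, limma adjusted p = 0.0223), with no overlap of the arrays in either case. Ncam1.S was at least 10.6-fold higher (adjusted p = 0.00248). Cdh20.L, dsc3.S, cldn3.L, cldn1.S and pcdh7.L, which had moved with chordin, did not pass in this comparison (adjusted p = 0.627, 0.0545, 0.359, 0.337 and 0.570). Cldn1.S did not return to its uninjected signals of 986 and 965 but read 3495 and 2706, without overlap. It passed as higher in limma with the 2 groups alone (log2 change 1.65, adjusted p = 0.00434) and with a pseudocount of 64 (adjusted p = 0.0391). Its second probe set went the other way and did not pass (log2 change -1.34, limma adjusted p = 0.535). Multiciliated cell markers moved with this comparison, from summed signals of 15024 and 14899 to 402 and 139 (8 of 8 lower), and ionocyte markers from 11217 and 9928 to 1064 and 795 (2 of 3 lower). Neural crest markers went from 605 and 412 to 36175 and 40230 (8 of 8 higher) and neural plate markers from 3475 and 3686 to 14185 and 18171 (3 of 6 higher). Epidermal markers went from 202340 and 169580 to 125740 and 51163, with 2 of 13 tested ones lower, beside 14.7% of all probe sets. Their part in the results was not tested.

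Of the 12 tested claudins 5 rose. The strongest was cldn6.1.L, 8.56-fold (log2 change 3.10, SE 0.15, limma adjusted p = 0.000115), and cldn6.1.S, cldn6.2.L and cldn6.2.S rose by 1.30, 1.19 and 1.62. Cldnd1.L rose by 1.29 (SE 0.15, adjusted p = 0.00198). For cldn4.L, whose brightest probe set changed by -0.26 (SE 0.11, adjusted p = 0.0977), the 2 dimmer probe sets fell (-0.88 and -1.49, adjusted p = 0.0281 and 0.0393), so that its probe sets disagree on the call. Of 10 desmosome genes 6 fell: jup.L by 1.14, jup.S by 0.92, pkp3.S by 1.38, dsp.L by 1.64, pkp4.L by 1.07 and pkp3.L by 0.96 on the log2 scale. Dsp.S and pkp2.L, which had fallen with chordin alone, changed by -0.75 (SE 0.53, adjusted p = 0.318) and -0.50 (SE 0.39, adjusted p = 0.358).

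Tjp3.L fell from 1129 and 1210.0 to 306 and 109, the strongest fall among tight junction genes (log2 change -2.64, SE 0.44, limma adjusted p = 0.00621), and f11r.S changed by -0.80 (SE 0.16, adjusted p = 0.0118). The connexins kept their directions: gja7.S and gjc1.L rose by 1.38 and 0.96, gjb2.L was 16.5-fold lower and gjb7.S at least 3.59-fold lower, although the dim second probe set of gjc1.L had a change of -0.36 that did not pass. The nectins parted, nectin2.L rising from 1027 and 1401 to 2479 and 3228 (log2 change 1.23, SE 0.29, limma adjusted p = 0.0190) and nectin1.L falling from 146 and 149 to 50.9 and 60.7 (log2 change -1.33, SE 0.37, limma adjusted p = 0.0315). Pcdhga3.L and pcdh8.2.L rose, the latter from background by at least 5.73-fold (adjusted p = 0.0378), pcdh1.L fell by 2.44 (adjusted p = 0.00283), and epcam.S rose by a small step from 15118 and 15171 to 20151 and 19652 (log2 change 0.39, SE 0.07, limma adjusted p = 0.00905). Gjb7.S had passed the filter only through the uninjected arrays and pcdhga3.L only through the wnt3a arrays, which favours their changes here. With the replicate block cdh3.L, dsc3.S, dsp.S, epcam.L and ocln.S passed as well (limma adjusted p = 0.00619, 0.0438, 0.0295, 0.00250 and 0.00387).

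Of these 28 calls 11 held with each array left out: cdh2.L, cdh2.S, ncam1.S, cldn6.1.L, cldn6.1.S, cldn6.2.S, cldnd1.L, gja7.S, jup.L, pcdh1.L and tjp3.L. Without wnt3a replicate 2 or either uninjected array fewer members were called, and fewer of all probe sets as well. The calls ended were cdh1.S (3 of 8 arrays, up to 0.120 without wnt3a replicate 2), cldn6.2.L (3 of 8 arrays, up to 0.157 without uninjected replicate 2), dsp.L (7 of 8 arrays, up to 0.192 without uninjected replicate 1), jup.S (3 of 8 arrays, up to 0.108 without wnt3a replicate 2), pkp3.L (3 of 8 arrays, up to 0.132 without uninjected replicate 2), pkp3.S (2 of 8 arrays, up to 0.0627 without wnt3a replicate 2), pkp4.L (2 of 8 arrays, up to 0.0901 without uninjected replicate 1), f11r.S (2 of 8 arrays, up to 0.0684 without wnt3a replicate 2), gjb2.L (2 of 8 arrays, up to 0.0535 without wnt3a replicate 2), gjb7.S (3 of 8 arrays, up to 0.0812 without uninjected replicate 1), gjc1.L (2 of 8 arrays, up to 0.0719 without wnt3a replicate 2), nectin1.L (4 of 8 arrays, up to 0.116 without uninjected replicate 2), nectin2.L (2 of 8 arrays, up to 0.106 without wnt3a replicate 2), ncam1.L (6 of 8 arrays, up to 0.191 without uninjected replicate 2), epcam.S (2 of 8 arrays, up to 0.0529 without wnt3a replicate 2), pcdh8.2.L (6 of 8 arrays, up to 0.168 without uninjected replicate 2) and pcdhga3.L (1 of 8 arrays, up to 0.0573 without wnt3a replicate 2). Under spike-in scaling, which moved the median of all probe sets from 0.11 to 0.82, 19 members rose and 4 fell. Beside them 31.4% and 4.9% of all probe sets were called higher and lower. This scaling ended the calls of cdh1.S, f11r.S and nectin1.L. It also ended those of all 6 desmosome genes that fell, jup.L, jup.S, pkp3.L, pkp3.S, pkp4.L and dsp.L (limma adjusted p between 0.142 and 0.903 for all of these). Plain moderation ended the calls of cldn6.2.L, dsp.L, epcam.S and ncam1.L (adjusted p between 0.0504 and 0.0944), and a fit of the 2 groups alone those of dsp.L and pkp3.L. A pseudocount of 64 ended those of ncam1.L and pcdh8.2.L, quantile normalization that of dsp.L and the stricter filter that of pcdh8.2.L. Without wnt3a replicates 1 and 2 the change was -2.45 and -0.83 for dsp.L and -3.37 and -1.92 for tjp3.L.

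**Figure D3:**
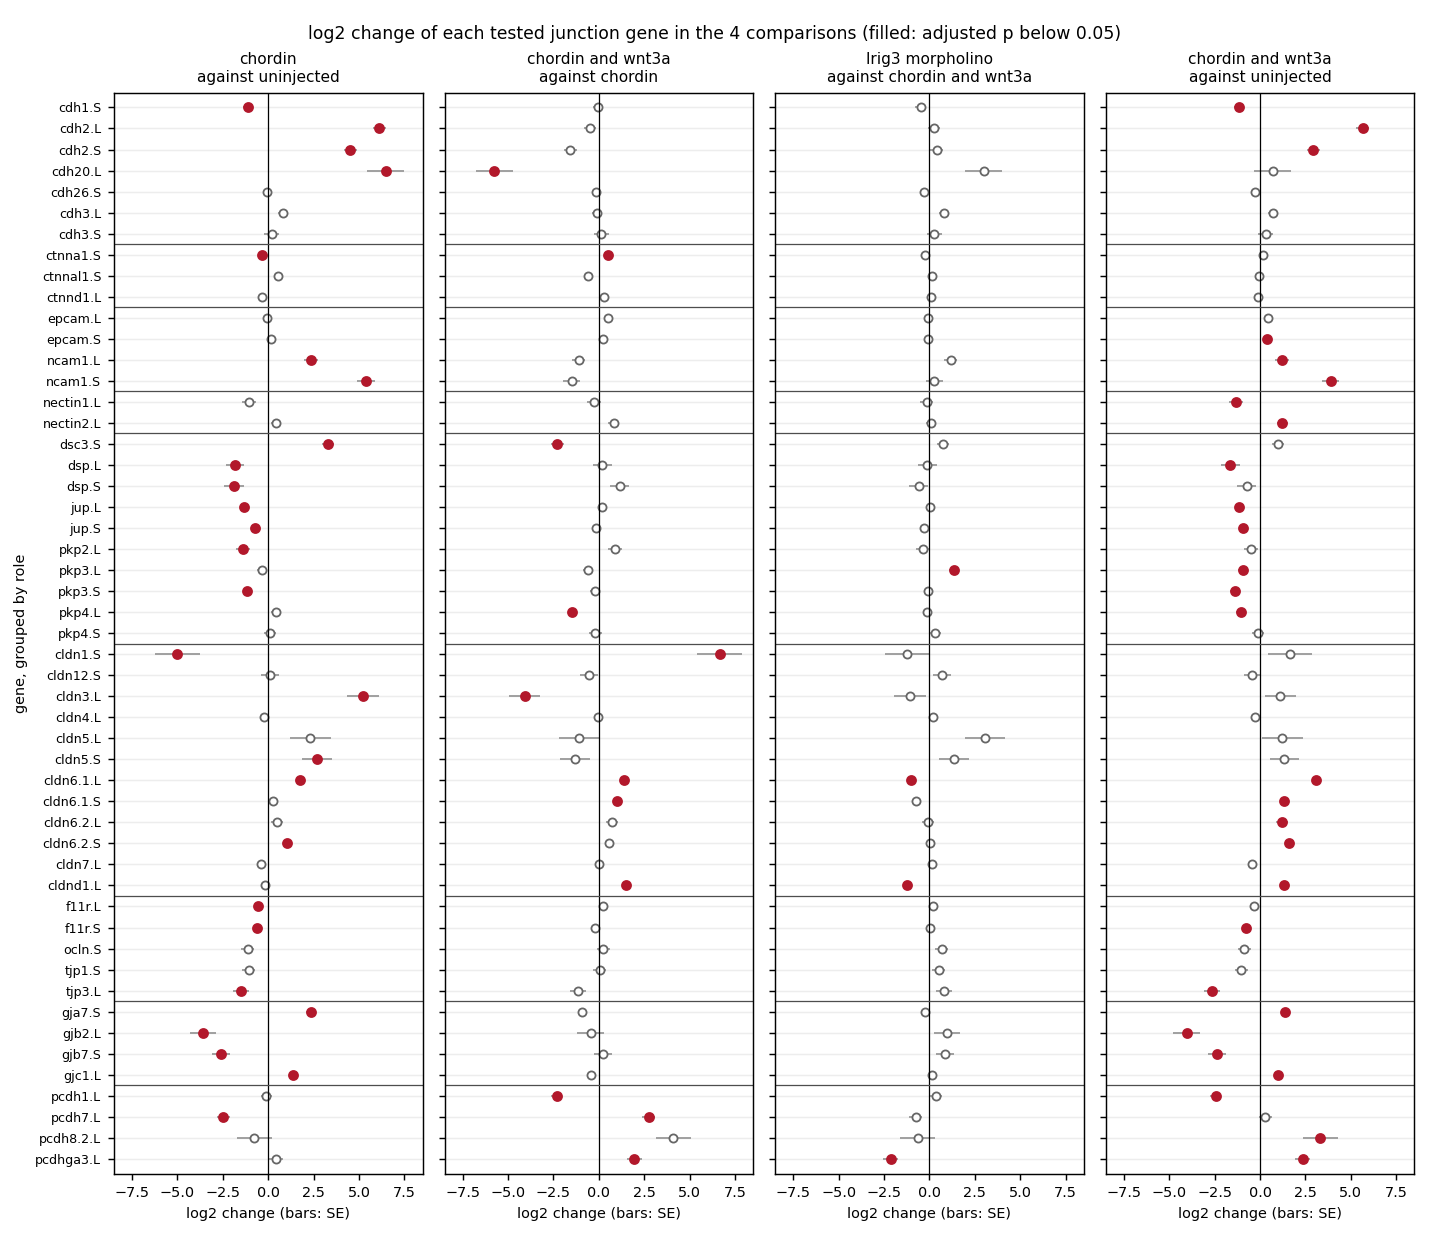
The log2 change (horizontal axis, bars show the SE of the fit) of the 51 tested genes in each of the 4 comparisons, with 2 arrays per group. Filled red points passed limma at an adjusted p below 0.05 and open points did not. The first and last panels hold 27 and 28 filled points, the wnt3a panel 12 and the morpholino panel 4.

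The morpholino against lrig3 changed few of these genes. Of 51 members tested 1 rose and 3 fell, beside 2.73% and 2.16% of all probe sets called higher and lower (4.90% in either direction). Without the filter 1 of 65 rose and 3 fell (1.54% and 4.62%, beside 1.51% and 1.16%), and the medians were 0.03 over the members and 0.07 over all probe sets. The genes that fell were cldn6.1.L, cldnd1.L and pcdhga3.L, which had all risen when wnt3a was added. Both comparisons share the wnt3a arrays, so a chance high value there would enter both with opposite sign. On both morpholino arrays summed neural crest markers were lower, at 8570 and 14159 against 36175 and 40230 (5 of 8 called lower), and neural plate markers higher, at 43960 and 38664 against 14185 and 18171 (3 of 6 called higher). Their part in the changes of these members was not tested.

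Cldn6.1.L fell from 8463 and 8541 to 4163 and 4116, still above the chordin arrays at 3709.7 and 2926 (log2 change -1.04, SE 0.15, limma adjusted p = 0.0238). Cldnd1.L fell from 3042 and 2663 to 1269 and 1169, close to its uninjected signals of 1217 and 1106 (log2 change -1.22, SE 0.15, limma adjusted p = 0.0188). Pcdhga3.L fell from 126 and 193 to 40.2 and 24.3 (log2 change -2.13, SE 0.42, limma adjusted p = 0.0409). It had passed the filter only through the wnt3a arrays, which favours a fall from them. Its other probe sets were too dim to test, and their groups overlapped. They read 50.1 and 36.4 and then 40.3 and 42.8, and 21.9 and 35.0 and then 24.9 and 19.6. In all 3 genes, read by the brightest probe set, both morpholino arrays lay below both wnt3a arrays. That adds no support, since their calls come from the same arrays. The replicate arrays of cldn6.1.L and cldnd1.L were close to each other.

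Pkp3.L, a desmosomal plakophilin, rose to 1313 and 1323, above all 6 other arrays, from 644 and 414 (log2 change 1.34, SE 0.25, limma adjusted p = 0.0370). Its other copy, pkp3.S, read 1848 and 2404 against 2533 and 1899 (log2 change -0.06, SE 0.27, limma adjusted p = 0.926). E- and N-cadherin did not pass: cdh1.S read 1092 and 1975 (log2 change -0.49, SE 0.29, limma adjusted p = 0.352) and cdh2.L 3024 and 2412 (log2 change 0.24, SE 0.34, limma adjusted p = 0.725). Cdh3.L read 13499 and 8309, its highest signals in the series, but did not pass (log2 change 0.82, SE 0.27, limma adjusted p = 0.134).

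With the replicate block 4 members rose, cdh3.L, cldn5.L, ocln.S and pkp3.L (adjusted p = 0.0139, 0.0332 and 0.0242 for the first 3). None of the 4 calls held with each array left out: cldn6.1.L (4 of 8 arrays, up to 0.111 without wnt3a replicate 2), cldnd1.L (3 of 8 arrays, up to 0.0966 without morpholino replicate 1), pcdhga3.L (8 of 8 arrays, up to 0.174 without wnt3a replicate 2) and pkp3.L (8 of 8 arrays, up to 0.133 without wnt3a replicate 2). Leaving out either wnt3a array or morpholino replicate 1 left 1 array in that group. Those fits also called far fewer of all probe sets, so the loss is not particular to these members. Without morpholino replicate 2, cldnd1.L fell and cdh20.L, which was bright on replicate 1 alone, passed as higher (log2 change 4.68, adjusted p = 0.0295). The poly-A controls read 9.85 and 9.66 on the morpholino arrays and 8.88 and 8.69 on the wnt3a arrays, so spike-in scaling moved the median of all probe sets from 0.03 to -0.90. Then 13 members fell and none rose, beside 24.7% and 0.664% of all probe sets called lower and higher.

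The 2 morpholino arrays differed in several members that are dim. Morpholino replicate 1 read 334 for cdh20.L against 27.4 on replicate 2, 324 against 33.0 for pcdh8.2.L, 234 against 57.7 for cldn5.L, 245 against 43.7 for cldn5.S, 661 against 221 for ncam1.S and 96.2 against 27.5 for cdh6.L. On the same array 7 of 7 mesoderm and muscle markers were above background, with a summed signal of 6471 against 243 on replicate 2 and at most 596 on the other 6 arrays. Of 4 notochord markers 3 were above background there, with a summed signal of 2809 against 705, and not.L and not.S read 625 and 689 against 35.4 and 3.96. On both chordin arrays and on wnt3a replicate 1 also 3 notochord markers were above background, with summed signals of 493, 711 and 1274. All 5 endoderm markers were above background on replicate 1 and 3 on replicate 2, at 87.4 or less except a2m.S. Their part in the levels of these members was not tested. In the other direction, multiciliated cell markers summed to 537 on replicate 1 and 3295 on replicate 2, and cdh1.S and gjb2.L were lower on replicate 1, at 1092 against 1975 and 41.1 against 132.

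**Figure D4:**
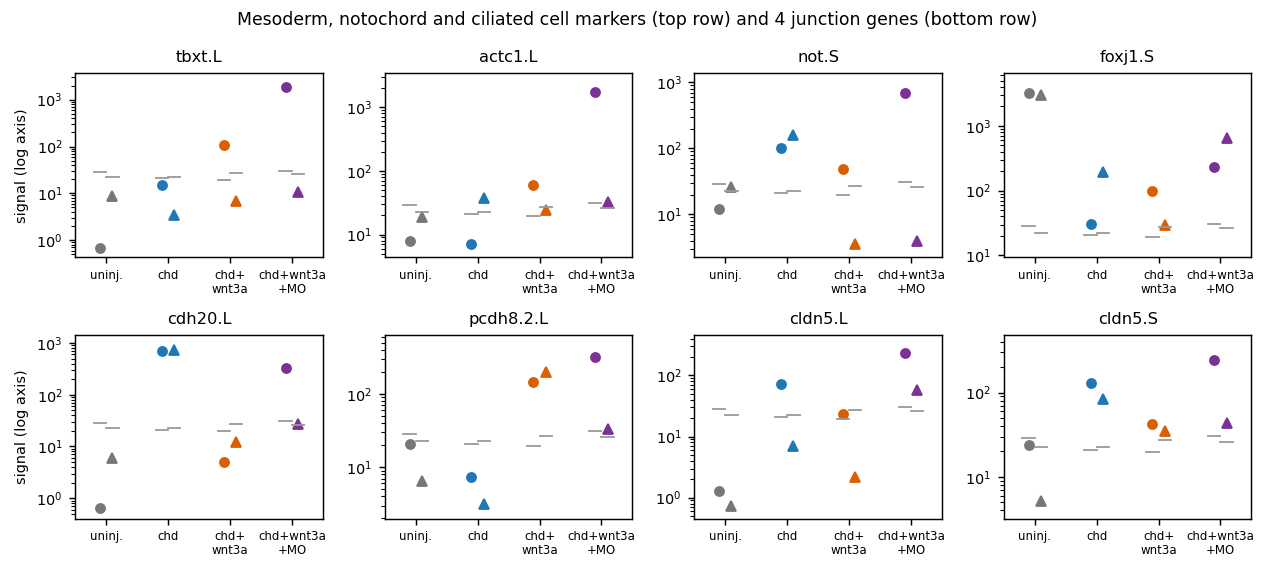
Signals (log axis) of 4 markers (top row: tbxt.L and actc1.L of mesoderm and muscle, not.S of notochord, foxj1.S of multiciliated cells) and 4 junction genes (bottom row) on the 8 arrays, drawn as in the plot of 16 genes. Morpholino replicate 1 (circle at the right) stands above replicate 2 (triangle) for the first 3 markers and for cdh20.L, pcdh8.2.L, cldn5.L and cldn5.S, and below it for foxj1.S.

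For 12 of the genes both subgenome copies passed the filter, so the change of the .L copy could be set against that of the .S copy on the same arrays. The test was limma on the difference of the log2 values, over 1503 such pairs of the array, and was added with the results above known. With chordin the copies of 3 genes differed, beside 12.0% of all pairs. Cdh2.L rose more than cdh2.S, by 1.61 (SE 0.25, adjusted p = 0.0150), and cldn6.1.L more than cldn6.1.S, by 1.45 (SE 0.31, adjusted p = 0.0368). For ncam1 the .S copy rose more, with a difference of -3.05 (SE 0.29, adjusted p = 0.00626). The same 3 genes differed in the same directions in caps with chordin and wnt3a against uninjected caps, beside 14.8% of all pairs, a comparison that shares the uninjected arrays.

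Since ncam1.S was at background in uninjected caps, its fitted change depends on the pseudocount. When wnt3a was added, 2.99% of all pairs differed and none of the 12, cdh2 coming nearest with a difference of 1.09 (SE 0.25, adjusted p = 0.0793). With the morpholino pkp3.L parted from pkp3.S by 1.40 (SE 0.24, adjusted p = 0.0405), beside 3.93% of all pairs. Of these differences the ones of ncam1 in both comparisons and of cdh2 in the caps with chordin and wnt3a held with each array left out. That of cdh2 with chordin did not pass without uninjected replicates 1 or 2 or chordin replicates 1 or 2 (adjusted p = 0.0517, 0.0655, 0.0835 and 0.0566). That of cldn6.1 with chordin passed only without chordin replicate 2 (highest adjusted p = 0.126, without uninjected replicate 2), and in the caps with chordin and wnt3a it was lost without either uninjected or either wnt3a array (up to 0.0741). That of pkp3 was lost with any array left out (up to 0.201, without wnt3a replicate 2). The copies of dsp, f11r, jup, epcam, cdh3, cldn5, cldn6.2 and pkp4 did not pass in any comparison, which does not show that they change alike. Closely related copies may share hybridisation, so values of single copies are uncertain to that extent.

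**Figure D5:**
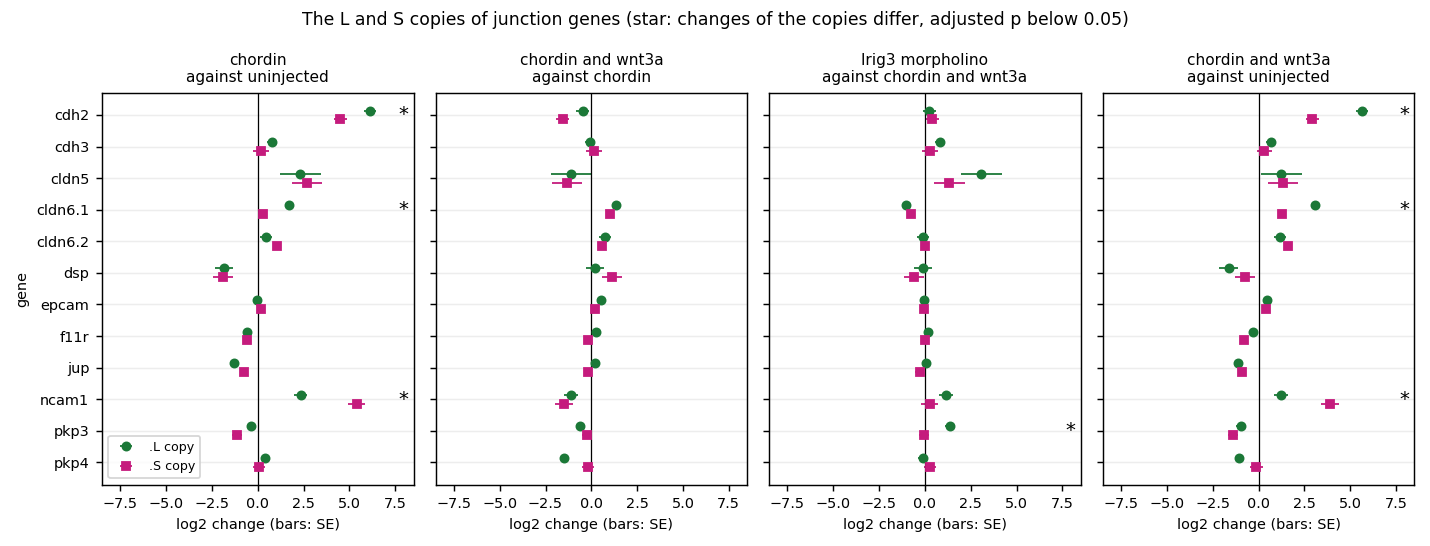
The log2 change (bars show the SE) of the .L copy (green circles) and the .S copy (pink squares) of 12 junction genes in the 4 comparisons. Stars mark genes whose copies differed at an adjusted p below 0.05: cdh2, cldn6.1 and ncam1 in the first and last panels and pkp3 in the morpholino panel.

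Other genes came from 6 lists that were drawn up with earlier results of these data known: 48 genes were measured and 42 tested. The lists held further adhesion and junction genes, except 1 list of 10 cadherin repressors and epithelial regulators, which are not junction genes. With chordin 10 rose and 7 fell, with wnt3a added 5 rose and 1 fell, with the morpholino 4 rose and 2 fell, and with chordin and wnt3a against uninjected caps 12 rose and 14 fell. Of these, the repressors and regulators made up 4, 4, 1 and 6 of the rises and 1, 0, 2 and 1 of the falls. Beside these and the list counts below, the shares of all probe sets called higher and lower were 17.6% and 11.7%, 3.08% and 2.74%, 2.73% and 2.16%, and 19.0% and 14.7% in the same order. All 3 partners of desmosomes, ppl.L (periplakin), evpl.L (envoplakin) and perp.S, fell in the caps with chordin and wnt3a, and 2 of them with chordin, among them perp.S from 8401 and 7848 to 4556 and 4598 (log2 change -0.83, SE 0.17, limma adjusted p = 0.0129). Of 13 tested tight junction and polarity genes 3 rose and 3 fell with chordin. Cingulin (cgn.L) changed by -1.01 (SE 0.22, adjusted p = 0.0156) and llgl2.L, a basolateral polarity gene, by -1.27 (SE 0.23, adjusted p = 0.00866), while llgl1.S, its paralogue, changed by 2.93 (SE 0.38, adjusted p = 0.00309) and pard6g.S, of the apical Par complex, by 2.32 (SE 0.21, adjusted p = 0.00103). With chordin and wnt3a 3 of these 13 rose and 7 fell.

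Of 10 adherens junction partners 2 rose and 1 fell with chordin. Beta-catenin, read by ctnnb1.L and ctnnb1.S, did not pass in any comparison, while lima1.L, an actin-binding partner of alpha-catenin, fell from 7307 and 6555 to 3650.0 and 3792 and returned to 5571 and 7240.3 with wnt3a (log2 change 0.77, SE 0.17, limma adjusted p = 0.0476). Among immunoglobulin adhesion genes cadm1.L rose with chordin from 904 and 866 to 3451 and 3433 (log2 change 1.95, SE 0.21, limma adjusted p = 0.00155), and alcam.L fell with wnt3a from 1172 and 724 to 172 and 81.8 (log2 change -2.90, SE 0.40, limma adjusted p = 0.00915) and rose with the morpholino (log2 change 1.87, SE 0.40, limma adjusted p = 0.0488). The 2 cadherin-family genes outside the naming rule, celsr2.L and ret.S, were too dim to test.

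Repressors of E-cadherin came up in different groups. Zeb2.S, a zinc-finger repressor of cdh1 in mammals, went from 20.8 and 10.5 in uninjected caps to 2346 and 1686 with chordin, 769.8 and 1135 with wnt3a and 2926 and 3496 with the morpholino. Snai1.S read 431 and 480.2, then 1733 and 2059.7, 7896 and 10944 and 5414 and 7519 in the same order, and snai2.L read 64.6 and 71.0, 8.33 and 9.07, 4602 and 4592 and 1046 and 1015. Zeb2.S and snai1.S rose with chordin (adjusted p = 0.000263 and 0.00171) and snai2.L fell (adjusted p = 0.000651). In the morpholino caps snai2.L fell (log2 change -2.15, SE 0.19, limma adjusted p = 0.00983) and zeb2.S rose (log2 change 1.77, SE 0.32, limma adjusted p = 0.0351), and the change of cdh1.S did not pass. The 10 repressors and epithelial regulators had 4 higher and 1 lower with chordin, and 4 higher with wnt3a added.

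Over these 42 genes, leaving out any array of the groups compared gave fewer rises in every comparison. Fewer falls were also called with chordin, with the morpholino, and with chordin and wnt3a against uninjected caps. With wnt3a added more genes fell without wnt3a replicate 1. In the morpholino comparison most rises were also lost without any single uninjected or chordin array. All these fits left 1 array in a group and called fewer of all probe sets too. With the arrays set by their poly-A controls, the higher and lower counts in the order chordin, wnt3a added, morpholino, and chordin with wnt3a were 13 and 1, 4 and 2, 0 and 11, and 13 and 5. The shares of all probe sets were 26.2% and 3.3%, 2.6% and 1.96%, 0.664% and 24.7%, and 31.4% and 4.9%. The replicate block gave 7 and 5 with the morpholino, beside 7.61% and 7.34%.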

How the data were processed

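RNA of 8 animal cap samples was measured on 8 Affymetrix arrays. The deposited values are linear signal intensities made by the authors with MAS5, per the submitters' processing notes, and their 2% trimmed mean is 500.1 to 500.2 on every array. Neither the genome build nor the scaling target is stated in the labels, and the number of arrays limits the precision. Of 32635 probe sets 96 controls were removed. GEO's platform annotation gave 1 symbol to 15495, several to 279 and none to 16765, and 15384 of the named entries matched RefSeq, which changed 2 symbols. Groups came from sample titles.

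Values were analysed with limma 3.58.1 in R 4.3.3 as log2(signal + 5.22), the pseudocount being percentile 10 of all signals, with group means, trended and robust moderation and 4 residual degrees of freedom. Probe sets above percentile 40 of their array (48.4 to 60.7) on 2 or more arrays were kept. Where a dimmer group was at background on both arrays, the fold is given as a lower bound against it, a background set after values were seen. The difference of replicate 1 from replicate 2 had correlations of 0.172 to 0.505 between groups, over 6 pairs, so the numbers in the titles may pair arrays. The signal of the gapdh control at the end of its message, over that at its start, also followed the numbers. It was 1.26 to 1.41 on the replicate 1 arrays and 1.61 to 1.76 on the replicate 2 arrays, and its part in the results was not tested. The labels do not say what the numbers mark. The main fit therefore left them out, and its calls and adjusted p-values ignore such a pairing, which only the replicate block takes in. Alternatives were the replicate block, pseudocounts of 16 and 64, no filter and a filter at percentile 60, quantile normalization, scaling to 36 poly-A controls, plain moderation, the 2 compared groups alone, the second brightest probe set and each array left out. The F test's alternatives and the test of copies were added after seeing the data. The fit was tested on simulated data. The members, lists and tests were chosen with earlier results of these data known. All members may be named by role; values on every array go to at most 6 called members per comparison and direction with the largest log2 change and to cdh1, cdh2, cdh3, cdh6, cdh11, ncam1, epcam and ctnnd1, with others added in the writing, and of other lists at most 4 genes each, those with the lowest adjusted p.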

Additional observations from a re-analysis of the deposited data

How the results depend on the processing

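With each array left out in turn, the members higher and lower numbered 10 to 13 and 2 to 15 with chordin, 3 to 7 and 0 to 6 with wnt3a added, 0 to 1 and 0 to 2 with the morpholino, and 8 to 16 and 3 to 14 with chordin and wnt3a against uninjected caps, and 17 to 34 members passed the F test. Every fit without an array of the 2 compared groups also called fewer of all probe sets. For the F test with an array left out no such share is given. With chordin 15 members fell, but 3 under spike-in scaling and 9 with plain moderation, beside 3.3% and 10.8% of all probe sets. With wnt3a added 7 rose and 5 fell, but 4 rose with only the 2 groups fitted or with the second brightest probe set, and 3 fell under the stricter filter. With the morpholino 1 rose and 3 fell, but 4 rose with the replicate block and none rose under spike-in scaling or with plain moderation. Under spike-in scaling 13 fell, beside 24.7% of all probe sets. None rose or fell with only the 2 groups fitted (4 higher and 5 lower at an unadjusted limma p below 0.05). That fit called 0.114% and 0.0318% of all probe sets higher and lower. With chordin and wnt3a against uninjected caps 13 fell, but 4 under spike-in scaling, beside 4.9% of all probe sets. Spike-in scaling split all called probe sets into 5772 higher and 725 lower with chordin, 146 and 5431 with the morpholino and 6897 and 1078 with chordin and wnt3a, where the deposited scaling gave 3866 and 2579, 601 and 476, and 4172 and 3242. It turned the chordin changes of ctnna1.S, f11r.L and f11r.S to 0.35, 0.12 and 0.10, and the second probe set turned gjc1.L to -0.36 with chordin and wnt3a. The cause of these differences was not tested. Over all alternatives 3280 single-gene values kept their side of the threshold, 252 lost a call, 84 gained one and 4 reversed. The replicate block changed no call of a member other than those given beside the results. With it 16 members rose and 18 fell with chordin, beside 24.3% and 16.2% of all probe sets. With wnt3a added 10 rose and 7 fell (beside 4.9% and 4.33%). With the morpholino 4 rose and 3 fell (beside 7.61% and 7.34%). In caps with chordin and wnt3a against uninjected caps 18 rose and 15 fell (beside 26% and 18.6%). Signals near background limit cdh20.L, cldn3.L, cldn5.S, dsc3.S, gjb7.S, ncam1.S and pcdh8.2.L to lower bounds.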
